A study of Mus musculus with 7 samples.

Results

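The 4 genes of the Fos family, Fos, Fosb, Fosl1 and Fosl2, were examined for Fos binding in mouse hippocampus. All peaks within 50 kb of each gene's span were taken from 6 lists of Fos chromatin immunoprecipitation sequencing (ChIP-seq) peaks, and overlapping peaks of different lists were merged into regions. Of the 68873 merged regions in the series, 76 lay near a Fos family gene, and 31 did so among the 26862 regions that at least 2 kainic acid lists held, called shared regions here. Wild-type C57BL/6J mice of 2 months received phosphate-buffered saline or kainic acid, a glutamate receptor agonist that provokes seizures. Kainic acid was given intraperitoneally in 2 injections of 10 mg/kg, 30 min apart. Kainic acid mice that reached seizure level 4 were killed 1 h after the first injection, and hippocampal chromatin was precipitated with a monoclonal anti-Fos antibody. Each group had 3 libraries, and no list of the single input library, from saline hippocampus, was used here. The labels name neither the animals nor their number behind a library, so p-values measure only the spread between these libraries.

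Fos family proteins are basic leucine zipper factors. They bind DNA as AP-1 when paired with a Jun family protein. Fos and Fosb are immediate early genes that neurons switch on within minutes of strong activity, and Fos protein has been described to act back on its own gene. Fosl1 (Fra-1) and Fosl2 (Fra-2) encode shorter relatives that lack the strong activation domain of Fos. Transcription of Fos is driven by its promoter and by several activity-dependent enhancers on both sides of the gene.

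List lengths were 15009, 63197 and 29650 peaks in kainic acid replicates 1, 2 and 3, against 7, 3277 and 2 in saline. The lowest −log10 q was 4.22 in saline replicate 1 and 8.64 in saline replicate 3, and 1.35 to 1.38 in the other lists. Whether those 2 short lists were called with the same cutoff was not tested. No saline library other than replicate 2 could report more than a handful of loci, and kainic acid replicate 2 had the longest list. The deposited fold of a peak is its enrichment over local background within 1 library, so it was compared only by rank within a list. Ranks are given as percentiles of the list length, where a value near 0 is a highest fold. The mean percentile or mean rank of a region averages its best peak in each kainic acid list that held it. Lists without a peak there do not enter the mean. Peaks near the 4 genes had 14 to 48, 11 to 89 and 14 to 85 reads over the summit in kainic acid replicates 1, 2 and 3, as solved from the deposited fold and p-value. Those of saline replicate 2 had 14 to 23 reads. Whether more cells carried Fos at a site or more Fos sat there per cell cannot be told apart in this bulk tissue.

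The sequences upstream of the start sites are shown because start sites were mostly not where the peaks lay. The 250 bases before the start of Fos (chr12:85473640-85473889, plus strand), Fosb (chr7:19310046-19310295, minus strand) and Fosl2 (chr5:32136222-32136471, plus strand) are from RefSeq, build GRCm38.p6, written 5′ to 3′. The promoter table matched 3 of the 4 genes, without Fosl1. Capitals mark a match to any of the motifs searched on both strands.
Fos: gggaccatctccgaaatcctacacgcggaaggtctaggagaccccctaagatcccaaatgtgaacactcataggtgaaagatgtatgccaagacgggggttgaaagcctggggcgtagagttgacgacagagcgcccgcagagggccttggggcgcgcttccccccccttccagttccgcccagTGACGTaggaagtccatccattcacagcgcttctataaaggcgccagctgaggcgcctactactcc
Fosb: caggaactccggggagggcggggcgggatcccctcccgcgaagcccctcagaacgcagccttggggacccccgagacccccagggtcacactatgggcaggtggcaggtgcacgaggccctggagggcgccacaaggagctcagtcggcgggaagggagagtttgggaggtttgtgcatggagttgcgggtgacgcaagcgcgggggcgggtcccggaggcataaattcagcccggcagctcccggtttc
Fosl2: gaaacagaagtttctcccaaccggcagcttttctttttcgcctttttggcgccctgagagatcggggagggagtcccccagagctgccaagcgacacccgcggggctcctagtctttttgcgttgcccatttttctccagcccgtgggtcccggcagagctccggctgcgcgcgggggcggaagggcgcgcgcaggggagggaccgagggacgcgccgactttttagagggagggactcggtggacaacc
The searched motifs were the AP-1 site TGANTCA, the cyclic AMP response element TGACGTCA, its core TGACGT, which lies within the full element, and the CArG box bound by serum response factor. The only match was the core TGACGT in Fos, at bases -66 to -61 counted back from the start. Over 17491 protein-coding genes, with 1 promoter each, 7.56% held this core, 2.01% the full element, 6.22% the AP-1 site and 1.4% a CArG box. These letters describe the 250-base windows only.

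All 4 genes had kainic acid regions. Fosb had 12 shared regions, Fosl1 had 7, and Fos and Fosl2 had 6 each. Of 21883 protein-coding genes, 62.7% had such a region within 50 kb, and their median number was 1. As many regions as at Fosb were found at 1.59% of genes, as many as at Fosl1 at 6.05%, and as many as at Fos and Fosl2 at 8.42%, counting genes with more. Per 100 kb of window searched, the numbers were 11.2 for Fosb, 6.47 for Fosl1, 5.80 for Fos and 4.94 for Fosl2. A region in all 3 kainic acid lists lay near each of the 4 genes, against 42.5% of protein-coding genes. There were 7 of these at Fosb, 4 at Fos and 2 each at Fosl1 and Fosl2.

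**Figure D1:**
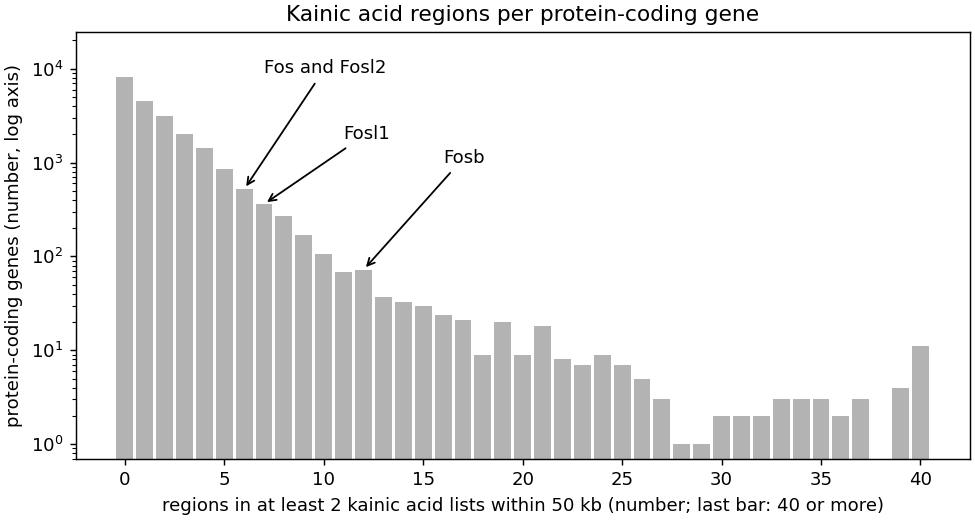
Shared regions within 50 kb, those with a peak in 2 or 3 kainic acid lists (x axis, last bar 40 or more), against the number of protein-coding genes with that many (y axis, log scale), with arrows at the Fos family genes. Most genes have few regions, with a median of 1, while Fos and Fosl2 sit at 6, Fosl1 at 7 and Fosb at 12.

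The first comparison asks whether more peaks were called near these genes after kainic acid than after saline. Near Fos, the gene for the precipitated protein itself, 5, 11 and 10 peaks were called in kainic acid replicates 1, 2 and 3, against 0, 3 and 0 in saline. At Fosb, whose splice form ΔFosB is a long-lived marker of repeated activity, kainic acid gave 8, 27 and 13 peaks and saline gave 0, 3 and 0. Fosl2 had 4, 21 and 5 kainic acid peaks and no saline peak in any list. For these 3 genes, each kainic acid list had more peaks than any saline list. Fosl1 had 2, 14 and 8 kainic acid peaks against 0, 2 and 0 in saline, so its groups met at 2 peaks. Such a complete separation was found at 33.5% of protein-coding genes, so it is common. Each of the 4 genes had a peak in every kainic acid list, as did 9800 of the 21883 protein-coding genes. In kainic acid replicates 1, 2 and 3 singly, 46.3%, 77.4% and 63.3% of protein-coding genes had a peak. In saline replicate 1, 0.032% of genes had one, and none of the family.

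Summed over the 4 genes, 19, 73 and 36 peaks were called with kainic acid and 0, 8 and 0 with saline. On the scale of log10(number + 1), kainic acid libraries averaged 1.58 ± 0.284 (SD, n = 3), and saline libraries averaged 0.318 ± 0.551 (SD, n = 3). The difference was 1.26, with a two-sided exact permutation p = 0.1 (0.125 after Benjamini-Hochberg adjustment over 5 comparisons), which is the lowest p possible for groups of 3. The exact p was also 0.1 (adjusted 0.125) for Fos, Fosb and Fosl2 singly and 0.2 (adjusted 0.2) for Fosl1. With saline replicate 2 as the only saline list, an alternative chosen after seeing the data, the difference was 0.625 (exact permutation p = 0.25, the smallest possible). At no gene of the family did a short saline list hold a peak. As shares of the whole list, the peaks near the 4 genes were 0.127%, 0.116% and 0.121% with kainic acid and 0.244% in saline replicate 2. The higher number with kainic acid thus went with longer lists, and the family's share of the list was not higher than in saline replicate 2.

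**Figure D2:**
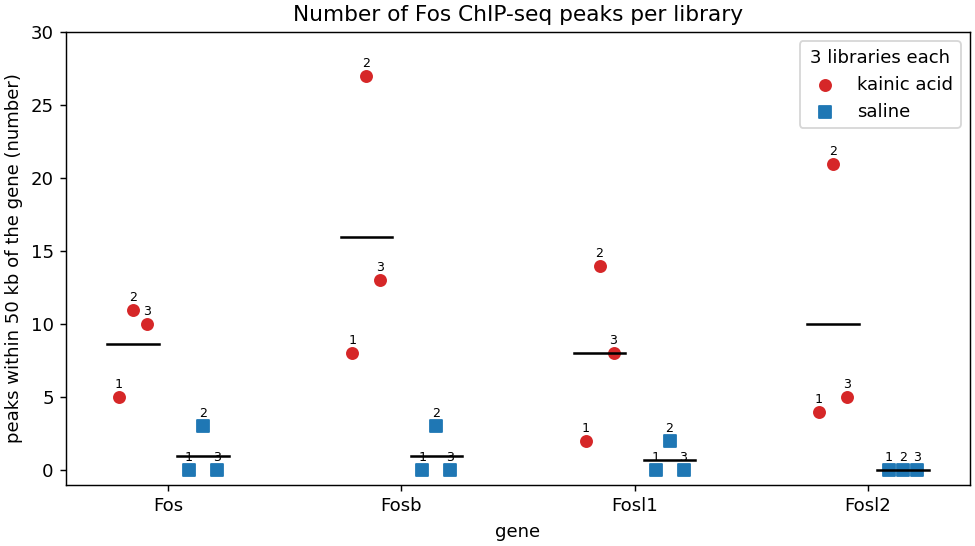
Number of peaks within 50 kb (y axis) of each Fos family gene (x axis), with a point for each library, numbered by replicate, and a bar at the mean of the 3 libraries. Kainic acid libraries lie above saline libraries for Fos, Fosb and Fosl2, while for Fosl1 kainic acid replicate 1 and saline replicate 2 share the value 2.

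Support by replicates was uneven. Of the 71 regions near the 4 genes with a kainic acid peak, 15 were in all 3 lists, 16 in exactly 2 and 40 in 1. Replicate 2 alone accounted for 37 of those 40, replicate 3 for 3 and replicate 1 for none. Every peak of kainic acid replicate 1 near these genes thus fell in a region shared with another kainic acid list. The series was much alike, with 59.7% of regions in 1 kainic acid list, against 56.3% near the family. Of those 39821 regions in the series, 35458 were in replicate 2 only, 3605 in replicate 3 only and 758 in replicate 1 only. The share in all 3 lists was 21.1% (95% Clopper-Pearson interval 12.3 to 32.4, counting error only) near the family and 17.9% over the series. Without replicate 2 the count of 31 regions fell to 16, and without replicate 3 to 18. As a share, the loss was largest at Fosl1, which kept 2 regions in either case, while Fos had 5 without replicate 2 and 4 without replicate 3.

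At the Fos locus the regions flanked the gene at a distance. The best-ranked one (chr12:85434068-85435562) lay upstream, with its summit at -39.2 kb from the start site, over the annotated long noncoding RNA Gm40477. Its folds were 5.52, 9.99 and 6.55 in kainic acid replicates 1, 2 and 3, at ranks 3268, 3356 and 3005 of their lists. The best summits of the 3 lists lay between -39.36 and -39.20 kb and rested on 22 (95% Poisson interval 13.8 to 33.3), 36 (25.2 to 49.8) and 32 (21.9 to 45.2) reads. Replicate 3 had a second peak in this region, with its summit at -38.53 kb and a percentile of 66.6. By their best peaks, all 3 libraries placed this site well above the middle of their lists, at percentiles 21.8, 5.31 and 10.1. A second region (chr12:85436000-85438188) began close to it and had its best summit at -37.4 kb. Its folds of 4.77, 10.3 and 3.25 gave percentiles of 38.3, 4.87 and 81.9, so the 3 libraries ranked it far apart.

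Downstream of Fos, the region at 45.9 kb from the start (chr12:85519492-85520017) was the most evenly ranked. It had folds of 5.78, 7.57 and 6.09 and percentiles of 17.9, 12.5 and 13.3, and no annotated gene overlaps it. The region at 14.0 kb downstream (chr12:85486515-85488302) had folds of 4.48, 7.36 and 5.37 and percentiles of 46.5, 13.7 and 20.3. Replicates 1 and 3 of kainic acid each split it into 2 peaks, with summits 13.2 and 13.9 kb from the start. These 4 regions, in all 3 kainic acid lists, had no saline peak.

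Closer to the Fos gene the support was weaker. A region upstream at -5.9 kb (chr12:85467508-85469010) was called in kainic acid replicates 2 and 3, with folds of 7.16 and 3.60. Another lay inside the gene span, 2.7 kb past the start and close to its far end (chr12:85476271-85476821), with folds of 3.67 and 4.31 in the same replicates. Kainic acid replicate 1 had no peak at either. No list had a peak over the Fos start site, and no kainic acid list had one within 1 kb of it. Among protein-coding genes in the promoter table, 4.51%, 28.2% and 11.2% had a peak within 1 kb of a start in kainic acid replicates 1, 2 and 3, so the lack of one is the usual case. Over a start site itself the shares were 0.635%, 7.22% and 2.24%, with 4.75% in saline replicate 2, and 3.64% of genes had a shared region there. The nearest kainic acid peak upstream had its summit at -2.05 kb and was in replicate 2 only, with a fold of 5.64.

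Saline replicate 2 had 3 peaks near Fos, none of which overlapped a kainic acid peak. Their summits lay at -10.78 kb (chr12:85462977-85463230, fold 4.62), at -1.72 kb (chr12:85472068-85472361, fold 4.97) and at 0.52 kb from the start, inside the gene (chr12:85474288-85474573, fold 3.71). They ranked 907, 498 and 2344 of 3277 and rested on 14, 21 and 17 reads. The latter 2 lay nearer the Fos start than any shared kainic acid region did, in 1 library of 3. The one at -1.72 kb lay just beside the kainic acid replicate 2 peak at -2.05 kb (chr12:85471628-85471966), without overlapping it. Peaks of any saline list lay within 50 kb of 3 of the 4 family genes, against 30.2% of protein-coding genes. In saline replicate 2, 10.3% of genes in the promoter table had a peak within 1 kb of a start.

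**Figure D3:**
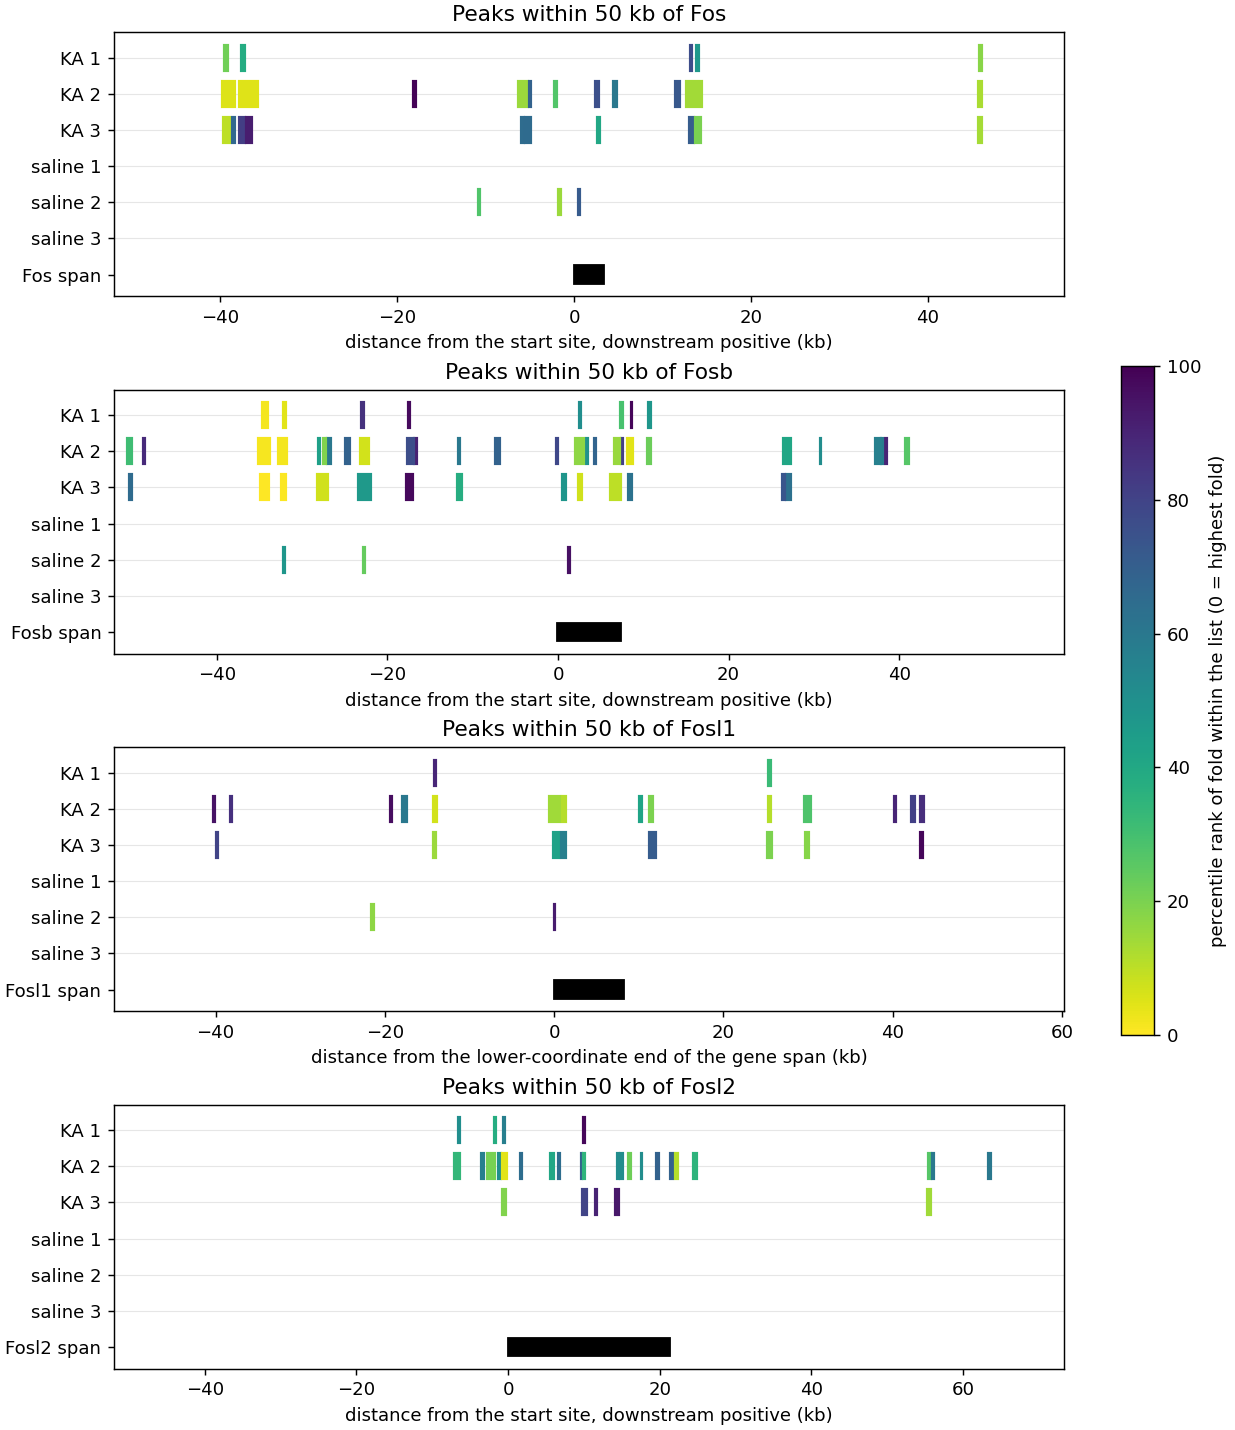
Peaks of the 6 lists (rows; KA is kainic acid) within 50 kb of each gene, placed by distance from the start site in kb (for Fosl1, from the lower-coordinate end of its span), coloured by percentile rank of fold within the list; edges make the narrowest peaks look slightly wider, and a black bar is the gene span. Shared kainic acid peaks flank Fos at -39.2 kb and 45.9 kb, the best-ranked ones near Fosb lie at -34.5 and -32.0 kb, and all saline peaks are of replicate 2.

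Fosb had the highest-ranked binding of the family, at sites that lie nearer to another gene. The best region (chr7:19343779-19345191), at -34.5 kb from the Fosb start, had folds of 10.2, 14.5 and 13.5 at ranks 240, 914 and 111. Its summits rested on 48 (35.4 to 63.6), 71 (55.5 to 89.6) and 85 (67.9 to 105) reads, again with 95% Poisson intervals. It overlaps the span of Ercc1, a nuclease subunit of DNA repair, and its best summit is 487 bp from an Ercc1 start. The next region (chr7:19341853-19342825), at -32.0 kb and 1975 bp from the Ercc1 span, had folds of 8.22, 14.0 and 12.7 at ranks 660, 1062 and 156. Across the 3 kainic acid lists, the percentiles of both regions ran from 0.374 to 4.4. Saline replicate 2 had a peak in the second one (fold 4.2, rank 1560, 14 reads) and none in the first.

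Other well-ranked regions lay in the Fosb gene itself. One at the far end of the span (chr7:19302432-19303900), with its best summit 6.9 kb from the start, had folds of 5.11, 7.02 and 6.55 and percentiles of 29.2, 15.3 and 10.1. Another, 2.5 kb from the start (chr7:19306994-19308066), had folds of 4.32, 6.75 and 7.15 and percentiles of 51.1, 17 and 7.26. Both were in all 3 kainic acid lists with no saline peak, and they had the best mean ranks of the shared regions with a summit inside a member's span. A region at -27.5 kb, nearest to Ercc1 (chr7:19336669-19338285) was called in replicates 2 and 3, with folds of 6.48 and 7.15. One 10.7 kb downstream of the start (chr7:19299173-19299615), over the long noncoding RNA Gm26802 and nearest to Rtn2 among coding genes, was called in replicates 1 and 2, with folds of 4.46 and 6.04.

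The 6 remaining Fosb regions had mean percentiles from 46.3 to 90.5, and 3 of them were in all 3 kainic acid lists. By position, 2 were nearest to Ercc1, 2 to Fosb and 1 each to Rtn2, a reticulon gene, and Ppp1r13l. In this gene-dense stretch the window also holds Ppm1n, Vasp and Cd3eap, and Fosb was the nearest coding gene to 4 of its 12 regions. At the Fosb start itself, 1 kainic acid list had a peak, replicate 2 (chr7:19310045-19310271, fold 3.51, rank 49529), where 7.22% of genes in the promoter table had a peak over a start. Saline replicate 2 had 2 more peaks near Fosb. One lay in a region shared by all 3 kainic acid lists at -23.0 kb (chr7:19331998-19333471, saline fold 4.74, rank 769), and the other 1.3 kb inside the gene, where no kainic acid peak overlapped it (chr7:19308654-19308855, fold 2.97, rank 3146).

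Fosl1 regions were led by sites that belong by position to neighbouring genes. Since the promoter table has no Fosl1 entry, distances are from the lower-coordinate end of its span. The best-ranked region (chr19:5472800-5473412), 25.5 kb from that end and 709 bp from the start of Efemp2, a gene for an elastic fibre protein, had folds of 4.98, 7.91 and 5.41 and percentiles of 32.2, 11.1 and 19.8. Next came a region inside Efemp2 (chr19:5477242-5477982), with folds of 5.60 and 5.56 in replicates 2 and 3. The region at -14.1 kb (chr19:5433398-5433855), nearest to AI837181, with folds of 3.34, 9.26 and 5.88, was the other one in all 3 kainic acid lists. Kainic acid replicate 1 ranked it at a percentile of 89.2, and replicates 2 and 3 at 6.79 and 15.0.

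At the Fosl1 gene itself, a pair of regions was called in kainic acid replicates 2 and 3 only. One covers the lower end of the span (chr19:5447049-5448444), with folds of 7.2 and 4.2 on 66 and 47 reads, and saline replicate 2 also had a peak there (fold 3.12, rank 3029, 22 reads). Its neighbour (chr19:5448539-5449080) had folds of 7.83 and 3.77 and no saline peak. The region at 11.4 kb (chr19:5458867-5459704), next to Ccdc85b, had folds of 6.41 and 3.49 in the same replicates. The 7th region, over the cofilin gene Cfl1, had a mean percentile of 93.0. Fosl1 was the nearest coding gene to 2 of its 7 regions. The other saline replicate 2 peak in this window (chr19:5426111-5426380, fold 4.93, rank 549) lay inside AI837181, with no kainic acid peak over it.

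Of the 6 shared Fosl2 regions, 5 lay in the gene or between its start and -6.6 kb. Fosl2 was the nearest coding gene to all 6, as Fos was to its own 6. A region just upstream of the start (chr5:32135631-32136299) was in all 3 kainic acid lists, with folds of 4.21, 10.6 and 5.51 on 40, 89 and 62 reads. It ended 173 bp before the Fosl2 span, and its best summit was at -0.6 kb. With 89 reads, the replicate 2 peak there had the most reads over a summit of any peak near the family. Its percentiles were 57.3, 4.45 and 19.0, at ranks 8596, 2811 and 5639 of lists that differ in length. Percentiles of strongest peaks were highest in replicate 1 and lowest in replicate 2 for protein-coding genes at large. Their medians were 30.1, 6.34 and 15.1, so the spread here is not particular to this site. No peak of any list covered the start site, while 1, 2 and 1 peaks of kainic acid replicates 1, 2 and 3 came within 1 kb of it.

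Among the shared regions near Fosl2, the best mean rank belonged to one 34176 bp beyond the gene (chr5:32191797-32192264), with folds of 5.67 and 5.96 in replicates 2 and 3. Its mean percentile of 20.2 rests on those lists only, at 26.2 and 14.2. The region just upstream of the start had 4.45 and 19 in the same lists. Its mean of 26.9 also includes 57.3 in replicate 1, so the means of these regions are not over the same lists. Upstream of the start, regions at -2.7 kb (chr5:32133652-32134858, folds 4.79 and 6.29) and at -6.6 kb (chr5:32129360-32130123, folds 4.32 and 5.13) were called in replicates 1 and 2. Inside the gene, the region at 10.1 kb (chr5:32146057-32146929) was in all 3 kainic acid lists, with folds of 2.72, 5.10 and 3.29 and a mean percentile of 71.1. The region at 14.4 kb (chr5:32150645-32151070) had folds of 4.32 and 2.84 in replicates 2 and 3. Another 15 Fosl2 regions were in 1 kainic acid list, more than at any other member.

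**Figure D4:**
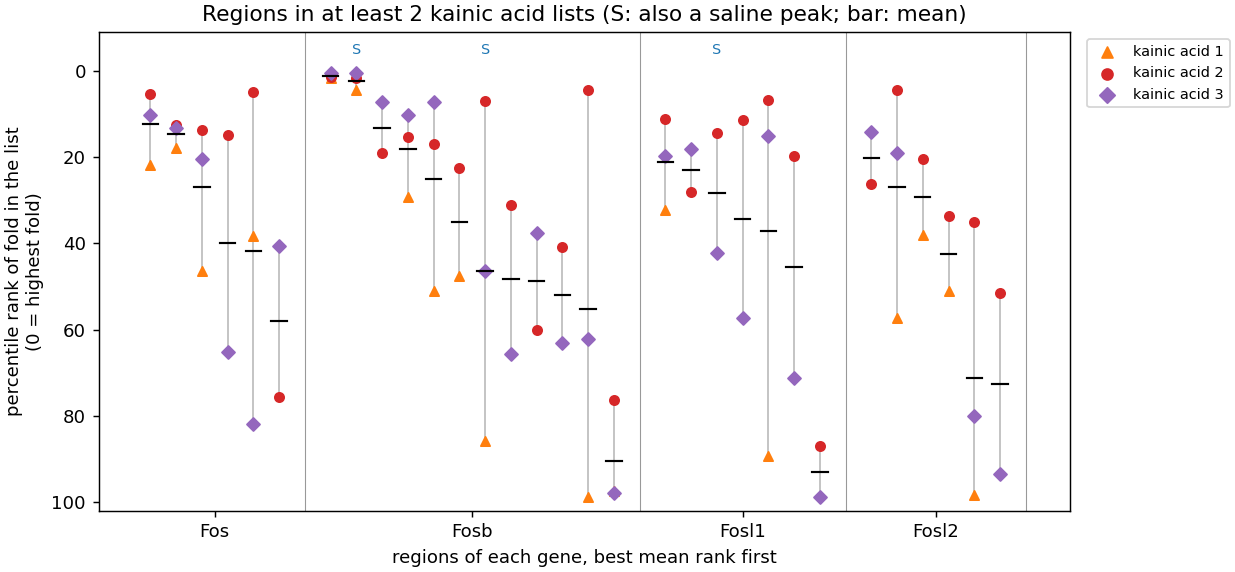
Percentile rank of fold (y axis, inverted, 0 is the highest fold) of the 31 shared regions, grouped by gene (x axis) and ordered by mean rank, with a point for each kainic acid list and a bar at their mean; S marks a saline peak. The first 2 Fosb regions have means of 1.14 and 2.20 with close points, while many others spread widely between the libraries.

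The strongest peak near each gene was then set in order. Its percentile was 1.6, 1.45 and 0.374 for Fosb in kainic acid replicates 1, 2 and 3, averaging 1.14 ± 0.667 (SD, n = 3). Fos came next with 17.9, 4.87 and 10.1, averaging 11 ± 6.57 (SD, n = 3). Fosl1 followed with 32.2, 6.79 and 15.0 (18 ± 13) and Fosl2 with 38, 4.45 and 14.2 (18.9 ± 17.2). Over the 9800 protein-coding genes with a peak in all 3 lists, the median of this mean was 19.4. Their medians in replicates 1, 2 and 3 were 30.1, 6.34 and 15.1, so the SDs above include a general difference between the lists. This value is the best of all peaks in a window, so windows with more peaks can reach a lower one by number alone. Fosb had 8, 27 and 13 peaks and Fos 5, 11 and 10, against medians of 0, 3 and 1 over all protein-coding genes. The order was not tested with equal numbers of peaks per gene. Fosb ranked above Fos in 3 of 3 lists, with a mean difference, Fosb minus Fos, of -9.84 ± 6.45 percentile points (SD over lists). Fosl1 minus Fos was 7.03 ± 6.45, positive in 3 of 3 lists. Fosl2 minus Fos was 7.89 ± 10.8, positive in 2 of 3 lists, and Fosl2 minus Fosl1 was 0.862 ± 4.32, so both were within the spread. With 3 lists, a paired exact test cannot go below p = 0.25.

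The value for Fos changed with reach, and its place in that order with the value ranked. Ranked by −log10 q, the means were 1.11 ± 0.768 for Fosb, 9.31 ± 10.1 for Fosl2, 13.2 ± 8.61 for Fos and 20.8 ± 17.4 for Fosl1. Fosl2 then came before Fos, by less than the spread of either. By fold within 10 kb, the strongest peaks of Fos had a mean percentile of 43.6 ± 31.6 (SD, n = 3). Fosb had 13.7 ± 13.6, Fosl2 20.5 ± 16.8 and Fosl1 26.8 ± 21.9. The 10 kb edge cut through the Fos region at 14.0 kb. Its better peaks in replicates 1 and 3, at percentiles 46.5 and 20.3, lay just outside, while the wide replicate 2 peak counted. The 10 kb value for Fos thus depended on how peaks were split there, and does not settle its place. Within 100 kb the value for Fos was 2.37, through a region 96.0 kb downstream of its start (chr12:85569467-85570549), in all 3 kainic acid lists with no saline peak. It had folds of 8.16, 13.2 and 12.9 at ranks 688, 1309 and 134. This site lies outside the 50 kb window of Fos, between Fos and Jdp2, which encodes an AP-1 repressor. It is nearer to the Jdp2 span (chr12:85598656-85639878), within 50 kb of it, than to the Fos span (chr12:85473890-85477274). Fosb stayed at 1.14 with the 100 kb reach.

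Over all 31 regions, the median mean percentile was 35.1, with 33.4 at Fos, 40.7 at Fosb, 34.3 at Fosl1 and 35.8 at Fosl2. For all 26862 kainic acid regions of the series it was 41.9. A saline peak lay in 3 of the 31 regions, 9.68% (2.04 to 25.8), and in 2.01% of the series' kainic acid regions. Those 3 were the regions at Fosb and Fosl1 described above. Conversely, 5 of the 8 regions with a saline peak near the family had no kainic acid peak, 62.5%, against 67.3% over the series.

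Other genes of the AP-1 pathway were counted in the same way. All 8 dimer partners (Jun, Junb, Jund, Atf2, Atf3, Batf, Batf3 and Jdp2) had a shared region, with a median of 5, and 12 of 13 known regulators of Fos transcription had one, with a median of 4. Over all protein-coding genes, 62.7% had a shared region and the median was 1. The windows of Atf3 and Batf3 overlap, as do those of Jdp2 and Batf, so the 8 partners are not 8 separate loci. The exception, named after its value was seen, was Srf, which encodes the serum response factor. Among the Jun family, whose proteins pair with Fos, Jun had 5 regions, Junb 5 and Jund 7. Jun had 4, 7 and 6 kainic acid peaks against 0, 1 and 0 in saline. Junb had 3, 9 and 5 against 0, 5 and 0, and Jund 3, 13 and 7 against 0, 2 and 0. Each kainic acid list thus had more peaks than any saline list at Jun and Jund, but not at Junb. This was so at 33.5% of protein-coding genes. Their strongest peaks had mean percentiles of 2.40 ± 2.44, 1.20 ± 1.24 and 8.63 ± 3.22 (SD, n = 3), so Junb and Fosb differed by less than the spread of either.

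Marker genes of cell types were counted as well, although a nearby peak does not measure expression. All 7 neuronal markers and all 4 markers of hippocampal neurons had a shared region within 50 kb. So did 3 of 4 astrocyte, 2 of 4 oligodendrocyte, 3 of 4 microglial, 3 of 3 endothelial and 3 of 4 liver genes, against the 62.7% of all protein-coding genes. Liver genes had one as often as astrocyte and microglial genes, so these counts do not tell the tissue.

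Genes with the peak pattern most like Fos were found by the distance between log2(number of peaks + 1) in the 6 lists, over 21825 protein-coding genes more than 200 kb from any member. They were Dtnb (distance 0.344), Aamp and Gpbar1 (0.371 each), Slc2a3 (0.431) and Chid1 (0.438). Aamp and Gpbar1 had the same counts, 4, 13 and 9 with kainic acid and 0, 3 and 0 with saline. Nearest to Fosb were Prex1 (0.300), Slc39a11 (0.398), Coq8b (0.460), Atp2b2 (0.514) and Man1c1 (0.541). Prex1 had 7, 23 and 12 kainic acid peaks and 0, 3 and 0 saline peaks, against 8, 27 and 13 and 0, 3 and 0 at Fosb.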

How the data were processed

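The 6 deposited peak lists were used, 1 per ChIP-seq library. Their narrowPeak columns hold, per the file contents, the authors' fold (a linear ratio to local background), −log10 p and −log10 q, and the summit offset. Peak names show trimmed reads and a mapping quality of 30. Trim Galore 0.6.4, Bowtie2 2.3.4.3, MACS2, deepTools 3.5.0 and build mm10 are named, without roles, per the submitters' processing notes. The control library and cutoff are not given in the sources used here, and may differ between lists, so a missing peak is one not called. Peaks overlapping by at least 1 bp were merged. Gene spans and start sites came from RefSeq GRCm38.p6, without exons. The reads over a summit were obtained by taking the fold as reads plus 1 over expected reads plus 1, and p as the Poisson chance of more reads. The deposited −log10 p was met within 0.001 for 136 of 136 peaks. Such reads follow this inferred model. Counting and solving were tested on simulated data. Peak numbers were compared by exact permutation over 20 assignments (Python 3.11.15, scipy 1.17.1). For genes with over 6 regions, the 6 of best mean percentile are described. Members and lists were chosen with earlier results of these data known. Peak sequences were not analysed here.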

Additional observations from a re-analysis of the deposited data

How the results depend on the processing

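The difference of 1.26 in log10(number of peaks + 1) kept its sign under every alternative run, at 1.10 to 1.58 with 1 library left out. It was 40 peaks without the logarithm and 0.625 without the 2 short saline lists, the latter chosen after seeing the data. With groups of 3 its p cannot show stability. The constant sign cannot show it either, since no run shortened the kainic acid lists to the length of the saline lists. As a share of the list, the family's peaks were 0.116% to 0.127% with kainic acid and 0.244% in saline replicate 2. With the replicate block the difference was 1.26 (exact sign-flip permutation p = 0.25, the smallest that 3 pairs allow). Correlations across genes of deviations in peak number were 0.354, 0.347 and 0.0137 for same-numbered libraries. Kainic acid replicate 1 with saline replicate 3, which differ in number, also gave 0.354. Saline replicates 1 and 3 held only 7 and 2 peaks, so saline replicate 2 set these values and they cannot decide on pairing. The numbers were not treated as pairs, since the labels do not pair them. The 31 regions became 14 with −log10 q of at least 10, 15 within 10 kb, 17 with equal numbers of kainic acid peaks, 15 in all 3 lists and 71 in any list. With 1 kainic acid library left out they were 16 to 28, since fewer lists allow fewer pairs. With −log10 q of at least 10, Fos had 4 regions, Fosb 6, Fosl1 3 and Fosl2 1. Over the alternatives, the number of shared regions moved by over 1.5 times in 7 cases, and of values of single genes 24 moved by over 1.5 times (numbers) or 1 SD (ranks) and 52 did not. The lists give no read totals, so a site missing from the saline lists may be unbound or below the calling limit.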
